A study of Rattus norvegicus with 12 samples.

Results

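The adrenergic, angiotensin and endothelin system is a set of hormone and transmitter pathways through which nerves, blood and neighbouring cells set the force, rate and growth of the heart. The 9 genes described here are Adra1a, Adra1b and Adrb1 (adrenergic receptors), Agtr1a and Ace (angiotensin), Edn1, Ednra and Ednrb (endothelin) and Rgs2 (a regulator of receptor signalling). They were chosen by name, and a probe belonged to a gene where the platform annotation gave it that symbol. Of the 13337 distinct gene symbols on the array, 7 were among these 9, each with 1 probe. Of the 7 probes, 5 were bright enough to be tested, among 7348 symbols tested in all. Ednra and Ednrb are not analysed here, since no probe carried either symbol.

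Alpha-1 adrenergic receptors, the type 1 angiotensin receptor and the endothelin receptors all signal through G proteins of the Gq class, which activate phospholipase C and protein kinase C and, in cardiac muscle cells, can drive growth. The beta-1 receptor instead works through the Gs protein and cyclic AMP, and raises heart rate and force of contraction. Rgs2 speeds the switching off of Gq and so dampens signals from the first group of receptors.

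Sprague-Dawley rats, an outbred stock, gave the heart RNA for 12 arrays, in 3 groups of 4. One group was under phasic systolic overload (SO), an added load while the ventricle contracts. Another was under phasic diastolic overload (DO), an added load while it fills, and the third was the control (CN), with no loading in any phase of the cycle. The series title places the load on the left ventricle, and asks whether expression responds to the phase in which load is applied. The labels give the tissue only as heart, and give no age, sex, genetic change, length of loading or array slide. They do not say that each array came from a separate animal, so the spread behind each p-value may be technical. An array is called a heart below only for brevity.

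Between 9249 and 9931 of 22523 probes were detected per array, and raw median intensities ran from 86.3 to 115.5. Of 8 cardiomyocyte markers, 6 were on the array and detected on all 12. A principal component holding 23.1% of the variance did not follow the groups, with CN 1, CN 2, DO 1 and SO 3 at one end. With limma, 0% of 10234 tested probes passed an adjusted p of 0.05 in any of the 3 comparisons (smallest adjusted p = 0.517 for SO against CN, 0.344 for DO against CN and 0.499 for SO against DO). No member passed, so the differences below are values with their errors and not calls. Unadjusted, 5.79% of probes had a p under 0.05 for SO against CN, 5.49% for DO against CN and 6.32% for SO against DO.

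The promoters of Adra1b and Rgs2 are shown because these genes had the smallest p among the members, Adra1b in SO against CN and Rgs2 in DO against CN. Each sequence is the 250 bases before the gene's start, from RefSeq on rat build GRCr8, written 5′ to 3′ along the gene's own strand, which is the minus strand for both. The Adra1b window is chr10:28814348-28814597 and the Rgs2 window is chr13:58352667-58352916. Capitals mark matches, on either strand, to any of 6 motifs. These were the TATA box TATAAA, the CAAT box CCAAT, the Sp1 motif GGGCGG, the cyclic AMP response core TGACG, the AP-1 site TGAGTCA and the TEAD motif CATTCC.
Adra1b: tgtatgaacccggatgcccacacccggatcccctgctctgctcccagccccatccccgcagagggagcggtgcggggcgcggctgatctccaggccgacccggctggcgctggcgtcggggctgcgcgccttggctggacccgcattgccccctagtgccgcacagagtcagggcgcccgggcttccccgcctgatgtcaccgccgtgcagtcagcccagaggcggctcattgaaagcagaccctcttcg
Rgs2: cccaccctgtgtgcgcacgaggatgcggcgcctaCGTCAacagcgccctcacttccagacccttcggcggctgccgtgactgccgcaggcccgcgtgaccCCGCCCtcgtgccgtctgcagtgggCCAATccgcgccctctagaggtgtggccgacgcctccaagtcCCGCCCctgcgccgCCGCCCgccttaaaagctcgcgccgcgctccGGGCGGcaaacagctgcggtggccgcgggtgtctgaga

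The Adra1b window held 0 of the 6 motifs, and its bases were 70.8% G or C, more than in 92.4% of 27457 promoters. The Rgs2 window was 72.4% G or C and held 4 matches to the Sp1 motif, 1 to the CAAT box and 1 to the cyclic AMP response core. No match overlapped another in these windows. Of all promoters of this length, 13.1% held the TATA box, 34.3% the CAAT box, 32.4% the Sp1 motif, 19% the cyclic AMP response core, 4% the AP-1 site and 11.8% the TEAD motif. The Agtr1a window held 1 TATA box, 2 overlapping Sp1 motifs and 1 cyclic AMP response core, and the Edn1 window held 1 TATA box. These matches describe the letters only.

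Adra1b, the alpha-1B adrenergic receptor, was the member whose SO hearts stood clear of the control hearts. Its normalized log2 intensity was 11.48, 11.38, 11.32 and 11.43 in the 4 SO hearts, 11.35, 11.96, 11.73 and 11.73 in the 4 DO hearts, and 11.56, 12.21, 12.18 and 12.03 in the 4 CN hearts. The SO hearts lay close together and all below the lowest CN heart, CN 1. The DO hearts spread more widely, with DO 1 below every SO heart but SO 3 and the other 3 within the CN range. Means were 11.40 ± 0.07 in SO, 11.69 ± 0.25 in DO and 12.00 ± 0.30 in CN (SD, n = 4 each). In heart tissue, fewer cells expressing a gene and less RNA per cell cannot be told apart.

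The Adra1b difference was −0.59 ± 0.15 (log2, SO minus CN, SE; 95% interval −0.92 to −0.27), which is a level 1.51-fold higher in CN. Its unadjusted limma p was 0.00178 and its adjusted p 0.578, with 0.283% of tested probes at a smaller p and 0.948% at a larger absolute difference. Among the 5 tested members, Adra1b alone had SO and CN groups that did not overlap, against 3.5% of all tested probes. The raw intensities, before any normalization, did not overlap either, at 2598, 2243, 2415 and 2706 in SO hearts and 2940, 5871, 4415 and 6927 in CN hearts. Raw values also carry the brightness of each array, with raw medians of 86.3 to 99.9 in SO and 92.2 to 115.5 in CN. The share of all probes not overlapping on the raw scale was not computed. With single arrays left out, the difference ran from −0.74 without CN 1, the lowest control, to −0.52 without CN 2.

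The DO mean of Adra1b lay between the SO and CN means, though no single DO heart fell between those groups. The difference from CN was −0.30 ± 0.15 (log2, 95% interval −0.63 to 0.02), with a limma adjusted p of 0.92. All 4 DO hearts were below the CN mean and 1 was below the lowest CN heart. Without DO 1 the difference was −0.19. Between the forms of load, the SO mean was lower than the DO mean by a log2 difference of −0.29 ± 0.15 (95% interval −0.62 to 0.04, adjusted p = 0.864), an interval that includes 0.

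**Figure D1:**
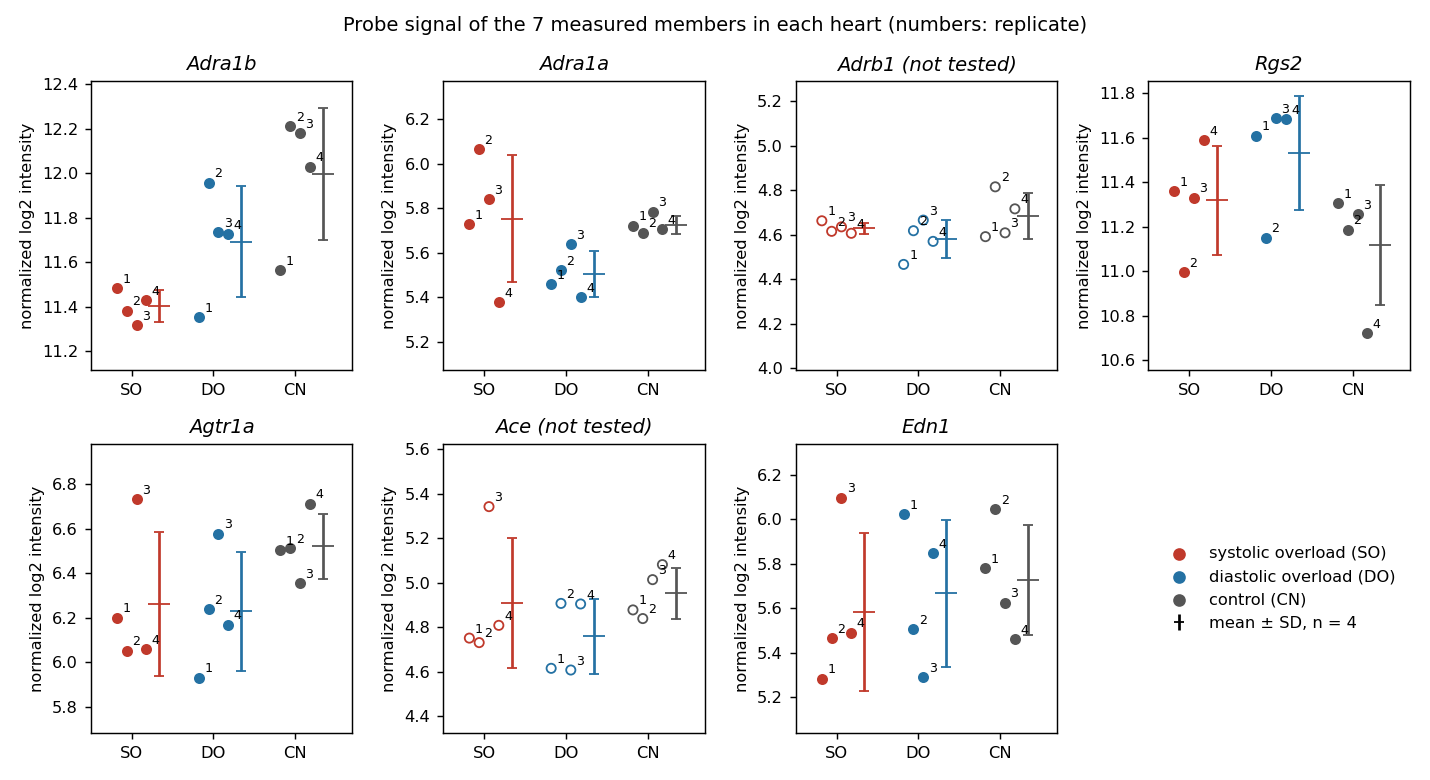
Normalized log2 intensity (vertical axis) of the 7 members with a probe in each heart, by group (SO, DO, CN). Points are arrays, called hearts here, open where the gene was not tested, and bars show the mean ± SD of 4 arrays. The 4 SO points for Adra1b, 11.32 to 11.48, lie below all CN points.

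Adra1a, the alpha-1A receptor, was dim, and showed its separation in DO hearts instead. Its log2 intensity was 5.46, 5.52, 5.64 and 5.40 in DO hearts and 5.72, 5.69, 5.78 and 5.71 in CN hearts. All 4 DO hearts lay below all 4 CN hearts, which among the 5 tested members was so for Adra1a alone, against 2.78% of all tested probes. The difference was −0.22 ± 0.12 (log2, DO minus CN, 95% interval −0.49 to 0.05), with a limma adjusted p of 0.924. Without background correction it was −0.08. The raw intensities of the groups overlapped, at 113.9, 116.6, 109.3 and 100.7 in DO hearts and 114.5, 127.9, 117.6 and 156.4 in CN hearts. The detection p of DO 4 was 0.045, close to the limit of 0.05.

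The SO hearts spread on both sides of the controls for Adra1a, at 5.73, 6.06, 5.84 and 5.38. SO 2 was the highest of all 12 hearts and SO 4 the lowest. The mean was 5.75 ± 0.29 in SO, against 5.72 ± 0.04 in CN (SD, n = 4 each), a log2 difference of 0.03 ± 0.12 (95% interval −0.24 to 0.30) that was −0.07 with median scaling, or 0.10 relative to the median probe on that scale. The SO mean exceeded the DO mean by 0.25 ± 0.12 (95% interval −0.02 to 0.52, adjusted p = 0.849), and by 0.15 without SO 2.

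Adrb1, the beta-1 receptor and the main target of noradrenaline in heart muscle, was not detected by its probe on any of the 12 arrays. Its log2 intensity ran from 4.61 to 4.66 in SO hearts, 4.47 to 4.67 in DO hearts and 4.59 to 4.82 in CN hearts. These values sit at background and have no order, so no fold change is given.

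Agtr1a, the type 1a angiotensin II receptor, had lower means in both load groups than in control hearts. Its log2 intensity was 6.20, 6.05, 6.73 and 6.06 in SO hearts, 5.93, 6.24, 6.58 and 6.17 in DO hearts, and 6.50, 6.51, 6.36 and 6.71 in CN hearts. In each load group 3 of 4 hearts lay below the lowest CN heart, and 1 heart, SO 3 or DO 3, lay within or just above the CN range. The differences from CN were −0.26 ± 0.17 in SO (log2, 95% interval −0.62 to 0.10, adjusted p = 0.854) and −0.29 ± 0.17 in DO (95% interval −0.65 to 0.07, adjusted p = 0.925). Both intervals include 0, and both differences share the same 4 control hearts.

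Both single hearts and processing moved the Agtr1a values. Without background correction they were −0.12 in SO and −0.14 in DO, and with median scaling −0.43 and −0.47, of which −0.26 and −0.28 were relative to the median probe. Without SO 3 the SO difference was −0.42, and without DO 1 the DO difference was −0.19. The SO and DO means differed by 0.03 ± 0.17 (log2, 95% interval −0.33 to 0.39), an interval that holds differences of either sign. Rats carry a close copy, Agtr1b, whose own probe was detected on 1 of 12 arrays. Whether the Agtr1a probe also binds RNA of that copy was not tested.

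Ace, the enzyme that converts angiotensin I to angiotensin II on the surface of endothelial cells, was detected on 1 of 12 arrays, SO 3, and was not tested. Its log2 intensity was 4.75, 4.73, 5.34 and 4.81 in SO hearts, and ran from 4.61 to 4.91 in DO hearts and 4.84 to 5.08 in CN hearts. The other 11 values are at background, and no fold change is given.

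Edn1, the precursor of endothelin-1, a peptide made mainly by endothelial cells that constricts vessels, varied between hearts of every group. Its log2 intensity was 5.28, 5.46, 6.10 and 5.49 in SO hearts, 6.02, 5.51, 5.29 and 5.85 in DO hearts, and 5.78, 6.05, 5.62 and 5.46 in CN hearts. Each group held hearts near the top and near the bottom of the range, and the groups overlapped fully. The differences from CN were −0.14 ± 0.20 in SO (log2, 95% interval −0.57 to 0.28, adjusted p = 0.955) and −0.06 ± 0.20 in DO (95% interval −0.49 to 0.37, adjusted p = 0.998). The difference of SO from DO was −0.08 ± 0.20 (95% interval −0.51 to 0.35).

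Edn1 had the widest spread within groups of the 5 tested members. Its pooled SD of 0.31 (log2) exceeded that of 87.6% of tested probes of any brightness, whose median was 0.19. Edn1 was dim, with a detection p of 0.047 in DO 3, close to the limit of 0.05. Pooled SDs were 0.26 for Rgs2 and for Agtr1a, 0.23 for Adra1b and 0.18 for Adra1a, the last larger than in 45.3% of probes. Across the 12 hearts, the highest level over the lowest was 1.61-fold for Adra1a, 1.86-fold for Adra1b, 1.74-fold for Agtr1a, 1.76-fold for Edn1 and 1.95-fold for Rgs2.

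The genes most like Edn1 across the 12 hearts, out of 7347 other symbols, were Ifi47 (Pearson r = 0.94), an interferon-inducible GTPase, Nfkb1 (r = 0.93), a subunit of the transcription factor NF-kB, and Apol9a (r = 0.93). With the group means taken out, r was 0.94, 0.93 and 0.93 in that order. These r are descriptions of genes chosen for their likeness, in the same arrays. Edn1 followed the leading component of the arrays at r = 0.72, while for the other 4 tested members this r lay between −0.22 and 0.07. SO 3, DO 1 and CN 2, the 3 hearts highest in Edn1, are among the 4 at one end of that component. Without those 4 arrays the Edn1 difference was −0.13 for SO and 0.0053 for DO against CN.

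**Figure D2:**
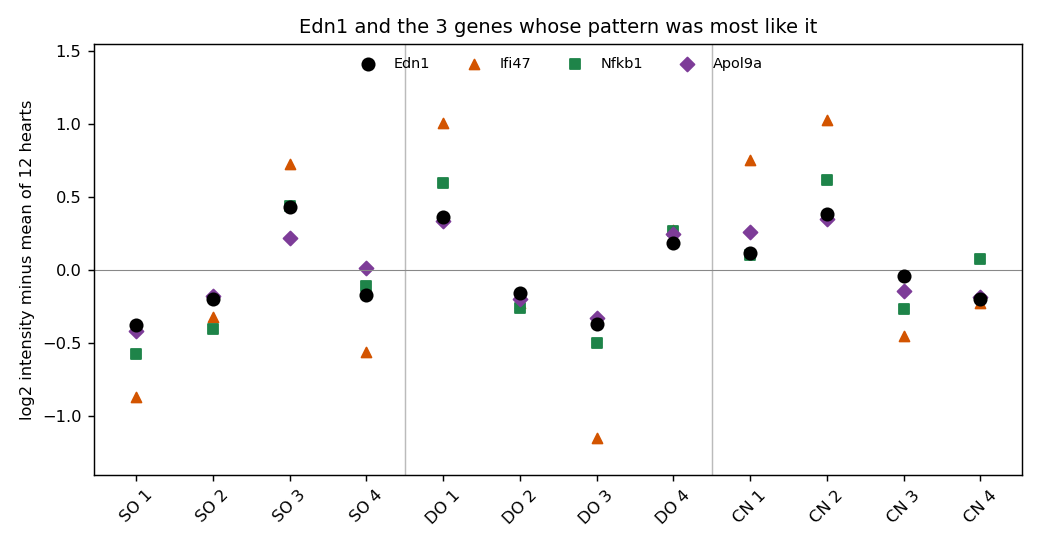
Log2 intensity minus the mean of the 12 hearts (vertical axis) in each heart (horizontal axis, by group) for Edn1 and the 3 genes most like it. SO 3, DO 1, DO 4, CN 1 and CN 2 lie above 0 for all 4 genes, and each group also holds hearts below 0.

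Markers of endothelial cells, best known for making endothelin-1, are given beside Edn1. Of 11 such markers, 9 were on the array and 8 were detected on all 12, while Cdh5, the endothelial cadherin, was detected on none. Their summed linear level ran from 3013 to 3763 in SO hearts, 2731 to 5023 in DO hearts and 3086 to 5378 in CN hearts. Of the 8 tested, 6 had a lower mean in SO and 7 in DO than in CN, against 48.5% and 50.8% of all tested probes. Their median differences were −0.28 and −0.23 (log2), with 0 passing. Emcn, a surface sialoprotein of endothelial cells, differed by −0.44 in SO against CN (limma adjusted p = 0.622), with groups that did not overlap. SO and CN groups did not overlap for 1 of the 8 markers and for 3.5% of all tested probes. Over the 12 hearts, Edn1 had an r of 0.03 with the mean log2 of the endothelial markers, 0.64 with the fibroblast markers and −0.48 with the cardiomyocyte markers. The part of these cell types in the Edn1 values was not tested.

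Rgs2, the inhibitor of Gq signalling, had its highest mean under diastolic overload. Its log2 intensity was 11.36, 11.00, 11.33 and 11.59 in SO hearts, 11.61, 11.15, 11.69 and 11.68 in DO hearts, and 11.30, 11.19, 11.26 and 10.72 in CN hearts. DO 1, DO 3 and DO 4 lay above the highest CN heart, while DO 2 lay within the CN range. CN 4 was the lowest of all 12 hearts. Means were 11.32 ± 0.24 in SO, 11.53 ± 0.26 in DO and 11.12 ± 0.27 in CN (SD, n = 4 each).

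The Rgs2 difference was 0.42 ± 0.17 (log2, DO minus CN, SE; 95% interval 0.06 to 0.77), or 1.33-fold. The unadjusted limma p was 0.0268, with 2.99% of probes at a smaller p, and the adjusted p was 0.879. The difference was 0.28 without CN 4 and 0.54 without DO 2. Scaled to a common median instead, it was 0.18, a setting in which the median of all tested probes was −0.18. The raw intensities of the groups overlapped, at 3292, 2374, 2730 and 2606 in DO hearts and 2547, 2908, 2343 and 3000 in CN hearts.

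Under systolic overload Rgs2 differed from CN by 0.20 ± 0.17 (log2, 95% interval −0.16 to 0.56, adjusted p = 0.904), with 3 of 4 SO hearts above the highest CN heart. The value was 0.07 without CN 4. With median scaling it was −0.02, which is 0.14 relative to the median probe, itself at −0.17 on that scale. SO minus DO was −0.21 ± 0.17 (log2, 95% interval −0.57 to 0.14, adjusted p = 0.941).

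**Figure D3:**
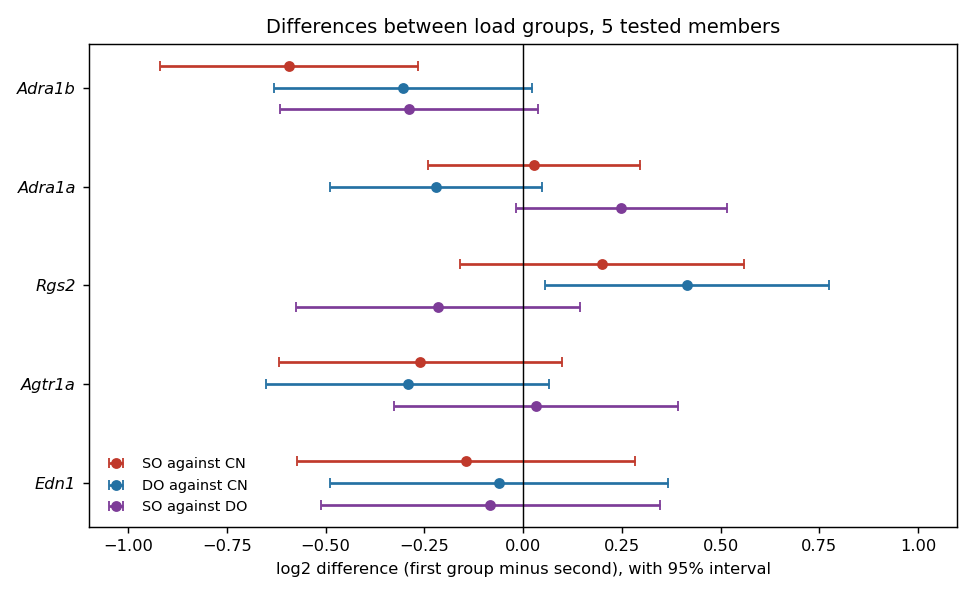
Log2 difference between groups (horizontal axis) for the 5 tested members (vertical axis) in the 3 comparisons, SO minus CN, DO minus CN and SO minus DO. Points are fitted differences and bars are 95% intervals, which leave out 0 for Adra1b in SO minus CN and for Rgs2 in DO minus CN, and no other.

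By count, 3 of the 5 tested members had a lower mean in SO than in CN and 4 of 5 a lower mean in DO than in CN. Over all tested probes the shares with a lower mean were 48.5% and 50.8%. The median member difference was −0.14 for SO and −0.22 for DO against CN, beside medians of 0.005 and −0.0025 over all probes. For SO against DO the count was 3 of 5 lower, against 47.8% of probes, the median −0.08 and the median over all probes 0.007, and 0 of 5 members had groups that did not overlap, against 3.13% of probes. An unadjusted p under 0.05 was reached by 1 member in each comparison with CN and by 0 in SO against DO.

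Scaling arrays to a common median, without quantile normalization, moved all probes together. It set the median of all tested probes to −0.17 for SO against CN and −0.18 for DO against CN, and the share of probes with a lower mean to 81.4% and 82.5%. On that scale Adra1b differed by −0.79 for SO against CN, which is −0.62 relative to the median probe. For DO against CN it differed by −0.52, or −0.34 relative to the median probe, and Rgs2 stood at 0.36 relative to it. CN 4 had the highest raw median.

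**Figure D4:**
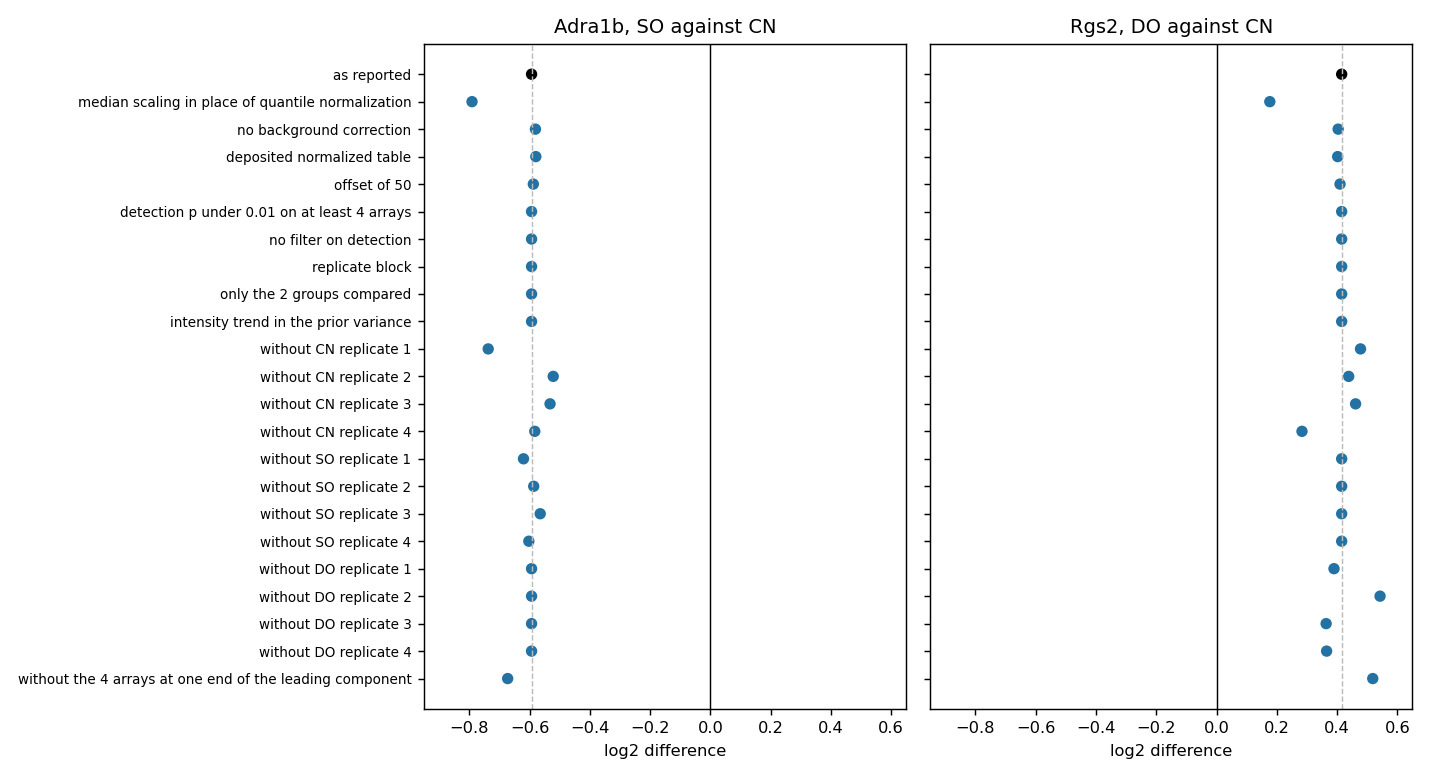
Log2 difference (horizontal axis) of Adra1b in SO minus CN and of Rgs2 in DO minus CN under each alternative setting (vertical axis). Adra1b stays below 0 and Rgs2 above 0 throughout, with the lowest Rgs2 value, 0.18, under median scaling.

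The other tested members were set against all other genes in the same way, by likeness across the 12 hearts. Adra1b was most like Dnajc17 (r = 0.90), Csnk2a2 (r = 0.88), a catalytic subunit of casein kinase 2, and Zfp414 (r = 0.88). Adra1a was most like Aco1 (r = 0.89), an aconitase that also binds iron-responsive RNA, Scaf1 (r = 0.88) and Adcy2 (r = 0.87), an adenylyl cyclase. Rgs2 was most like Pla2g5 (r = 0.86), a secreted phospholipase A2, Or4f15 (r = 0.84) and Timeless (r = 0.81). Agtr1a was most like Esd (r = 0.88), an esterase, Cadps (r = 0.85) and Pgap2 (r = 0.84). Among the members themselves r ran from −0.60, between Adra1a and Rgs2, to 0.37, between Adra1b and Agtr1a. All of these values share the same arrays.

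Markers of cardiac muscle are given beside Adra1b. The summed linear level of the 6 cardiomyocyte markers ran from 95664 to 103063 in SO hearts, 99184 to 103591 in DO hearts and 92063 to 100854 in CN hearts. Those sums overlapped between groups, but the mean log2 level of the same markers did not overlap between SO and CN. It was 12.80 to 12.90 in SO hearts, 12.74 to 12.95 in DO hearts and 12.72 to 12.77 in CN hearts. Taken singly, 0 of the 6 markers had SO and CN groups that did not overlap, against 3.5% of all tested probes. Of the 6 markers, 5 had a higher mean in SO and 4 in DO than in CN, with 0 passing. Over all tested probes, 48.5% had a lower mean in SO and 50.8% in DO than in CN. The 6 macrophage markers on the array, of 8, all had higher means in SO and in DO than in CN, with 0 passing. Their summed level ran from 2062 to 2709 in SO hearts, 1700 to 4334 in DO hearts and 1508 to 2363 in CN hearts. Adra1b correlated with the mean of the macrophage markers at r = −0.58 and Rgs2 at r = 0.45 over the 12 hearts. The 8 fibroblast markers, all on the array, summed to between 18695 and 23171 in SO, 18631 and 28159 in DO and 18147 and 23905 in CN.

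Blood and atrial markers varied most. The 3 red blood cell markers on the array, of 4, summed to between 409 and 761 in SO, 157 and 716 in DO and 355 and 1411 in CN. All 3 enter the sum and the mean, though Alas2 was detected on no array and only 1 was detected on all 12. The 2 that were tested, the globins Hba-a1 and Hbb, differed by −1.02 and −1.27 in DO against CN (log2, limma adjusted p = 0.894 and 0.92), and Rgs2 had an r of −0.46 with the mean of the red blood cell markers. The 2 atrial markers on the array, of 4, summed to between 2024 and 10077 in SO, 2445 and 26997 in DO and 5805 and 22336 in CN, with a median difference of −0.63 in SO against CN. The part of any of these cell types in the Adra1b and Rgs2 values was not tested.

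Other genes of the same pathways were read from lists of receptors, signalling enzymes and transmitter-handling proteins. No gene of these lists passed the test in any comparison. Of 6 further adrenergic receptors, only Adra2c, an inhibitory receptor known from nerve endings, was tested, and its differences were 0.05 for SO and 0.11 for DO against CN (log2).

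Downstream of the adrenergic receptors, 18 of 27 listed relay and desensitisation genes were tested. Of these, 15 of 18 had a higher mean in SO than in DO, against 52.2% of all tested probes, with a median difference of 0.11 (log2). That median was 0.07 without SO 3 and 0.03 without the 4 arrays named above. Adcy6, a main adenylyl cyclase of heart muscle, stood at 5.95 ± 0.34 in SO and 5.40 ± 0.48 in DO (log2 intensity, SD, n = 4 each), a difference of 0.54 with a limma adjusted p of 0.761. It was 0.35 without DO 1 and 0.23 without background correction. Pde4d, a cyclic AMP phosphodiesterase, differed by 0.25 in the same comparison.

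Compared with control hearts, 8 of these 18 genes had a lower mean in SO and 12 of 18 in DO, against 48.5% and 50.8% of all tested probes. The medians of the 18 were 0.05 and −0.07. The SO median was −0.14 with median scaling, where the median probe lay at −0.17, and lay at −0.01 without CN 4 or without SO 4. Pde3a, a phosphodiesterase that breaks down cyclic AMP, differed by 0.34 in SO, and Pde4b by −0.26 in DO. Grk2, the kinase that desensitises active receptors, differed by −0.25 in SO and −0.26 in DO, and was detected on 4 of 12 arrays. Its means were 5.13 in SO, 5.12 in DO and 5.38 in CN, and signal near background limits both differences. Without CN 1, Grk2 stood at −0.15 in SO and −0.16 in DO, and Pde4b at −0.16 in DO.

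Of the genes that make, take up or break down catecholamines, 5 of 9 were tested. Of these 5, 4 had a lower mean in SO and 4 in DO than in CN, against 48.5% and 50.8% of all tested probes. Dbh, the enzyme that makes noradrenaline in nerve endings, stood at 6.42 ± 0.34 in SO and 6.84 ± 0.24 in CN (log2 intensity, SD, n = 4 each), a difference of −0.42 with a limma adjusted p of 0.845. Slc22a3, a transporter that clears catecholamines outside neurons, differed by −0.27 in SO and −0.32 in DO, values that were −0.17 without CN 3 and −0.18 without DO 3. Slc6a2, the neuronal noradrenaline transporter, differed by −0.12 in DO against CN and 0.11 in SO against DO.

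Of 17 further genes of the renin, angiotensin and aldosterone system, 14 were on the array and 4 were tested. Agt, the precursor of angiotensin, and Agtr2, the type 2 receptor, were detected on 0 of 12 arrays. Nr3c2, the mineralocorticoid receptor, differed by 0.15 in SO and 0.16 in DO against CN, and the SO value was −0.0007 with median scaling, where the median probe lay at −0.17. The DO value was 0.08 without DO 3. Cma1, a mast cell chymase detected on 5 of 12 arrays, differed by 0.10 in SO. Agtrap, which binds the type 1 receptor, and Atp6ap2, the prorenin receptor, lay within 0.06 of 0 in every comparison.

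In the endothelin system, 2 of 5 further genes were tested. Ece1, the enzyme that releases endothelin-1 from its precursor, stood at 7.98 ± 0.20 in SO, 7.93 ± 0.32 in DO and 8.21 ± 0.30 in CN (log2 intensity, SD, n = 4 each). Its differences from CN were −0.23 in SO and −0.28 in DO, with limma adjusted p of 0.896 and 0.93. Without CN 1 they were −0.08 and −0.13. Edn2 differed by −0.0039 in SO and −0.04 in DO.

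In the Gq relay shared by these receptors, 13 of 20 genes were tested. Of these, 11 had a lower mean in SO and 9 a lower mean in DO than in CN, against 48.5% and 50.8% of all tested probes. The medians were small, −0.04 and −0.05. Prkca, the main conventional protein kinase C of heart muscle, stood at 6.87 ± 0.16 in DO and 7.16 ± 0.15 in CN (log2 intensity, SD, n = 4 each), with a limma adjusted p of 0.84. Its DO and CN groups did not overlap, which was so for 1 of the 13 genes and 2.78% of all tested probes. Prkce, another isoform, differed by −0.25 in DO against CN (adjusted p = 0.879) and 0.23 in SO against DO, and by −0.16 and 0.13 without DO 1. Gna12, the alpha subunit of another G protein class, differed by 0.29 in SO against CN (adjusted p = 0.813). Itpr3, a calcium release channel detected on 5 arrays, differed by −0.38 in SO against DO. Its means were 4.99 in SO and 5.37 in DO, and signal near background limits that difference.

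Among the other RGS proteins, 7 of 16 were tested, with 4 higher and 3 lower means in SO than in DO, against 52.2% of all tested probes higher. Rgs10 stood at 7.71 ± 0.11 in SO and 8.17 ± 0.30 in DO (log2 intensity, SD, n = 4 each), a difference of −0.46 with a limma adjusted p of 0.672. Rgs19 was lower in all 4 SO hearts than in any DO heart, with a difference of −0.44 (adjusted p = 0.701), and was detected on 8 arrays. SO and DO groups did not overlap for 1 of the 7 genes and for 3.13% of all tested probes. Rgs14 differed by −0.25 in DO against CN, with groups that did not overlap (9.01 ± 0.13 and 9.26 ± 0.11). DO and CN groups did not overlap for 1 of the 7 genes and for 2.78% of all tested probes. Rgs4, which like Rgs2 can act on Gq, differed by −0.34 in DO against CN, −0.22 without CN 1, and by 0.505 in SO against DO (adjusted p = 0.746).

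Of 21 further vasoactive ligands, enzymes and receptors, 13 were tested. Ptgs2, the inducible cyclooxygenase, stood at 9.06 ± 0.59 in SO and 10.18 ± 1.18 in CN (log2 intensity, SD, n = 4 each), a difference of −1.11 with a limma adjusted p of 0.813. The SD of the CN hearts alone was larger than that difference, which was −0.70 without CN 1 and −0.33 without the 4 arrays at one end of the leading component. Adora2a, an adenosine receptor that widens vessels, differed by −0.55 in DO against CN (adjusted p = 0.92), and by −0.29 without CN 1. Apln, the ligand apelin, differed by 0.24 in SO and 0.23 in DO, values that were 0.12 and 0.10 without CN 1, and the DO value was −0.0043 with median scaling, where the median probe lay at −0.18. Ptgis, which makes prostacyclin, differed by −0.34 in SO against DO, and by −0.16 without DO 1.

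**Figure D5:**
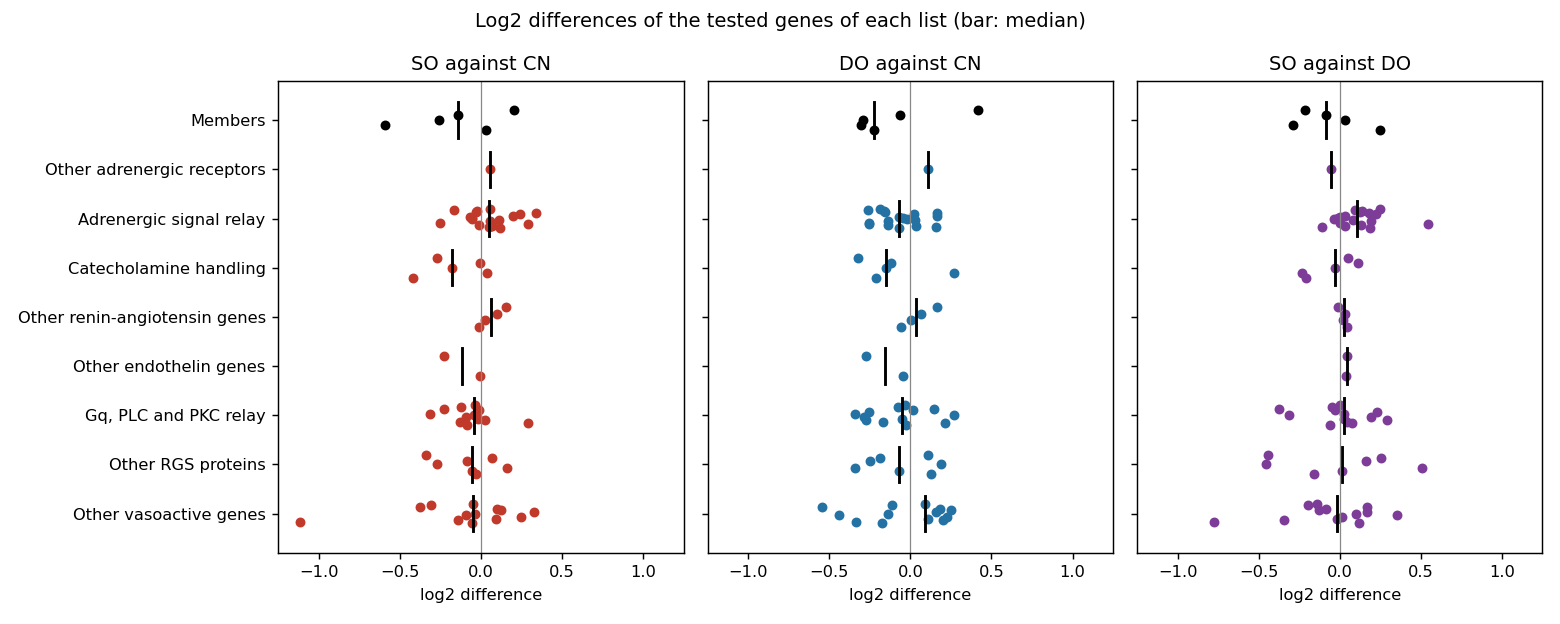
Log2 differences (horizontal axis) of the tested genes in each pathway list (vertical axis) for the 3 comparisons. Points are genes and the bar is the list's median. The points of most lists lie on both sides of 0, and in SO minus DO 15 of the 18 adrenergic relay genes lie above 0.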

How the data were processed

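The members and lists were chosen with earlier results of these data known. Labelled cRNA was hybridised to Illumina bead arrays, 4 for each of 3 groups. Per the file headers, the deposited table used here holds non-normalized linear intensity values and a detection p-value for each probe and array. A second table deposited by the authors holds intensity values that, from the values, were quantile normalized, and served as an alternative. The sources used here do not give their software.

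Symbols came from the platform annotation, in which 13793 probes had 1 symbol, 0 several and 8730 none. The neqc function of limma 3.58.1, run in R 4.3.3, corrected background and quantile normalized the arrays, with an offset of 16 before log2, which understates differences of dim probes. The test took the 10234 probes whose detection p was under 0.05 on 4 or more of 12 arrays. One mean per group was fitted over 12 arrays (lmFit, eBayes), and p-values were adjusted by Benjamini-Hochberg over all tested probes within each comparison, at 0.05. The number of arrays limits the precision, with a median SE of 0.13. The limma fit and adjustment were tested, for SO against CN only, on values simulated around the normalized intensities. Background correction, normalization and the detection filter were not part of that simulation.

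Besides the members, the text names up to 2 genes of each pathway list with the smallest p in a comparison, and the 3 symbols whose pattern over 12 arrays was most like each tested member. Where a list gene had several tested probes, the brightest stood for it. Agtr1b, Agt, Agtr2, Emcn, the globins and the SO against DO value of Rgs4 are named outside this rule, after their values were seen. Of 5 tested members, 4 had a promoter in the RefSeq table. Alternatives covered the offset, background correction, scaling, the deposited normalized table, detection filters, a replicate block, and each array left out. Replicate numbers were not taken as a pairing of the arrays.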

Additional observations from a re-analysis of the deposited data

Results flagged for a closer look

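In 102 groups of 4 hearts, over 34 probes, 7 single hearts stood apart from the other 3 by more than the 95% critical value of Dixon's ratio. Chance flags about 1 in 20 groups. Rgs2 in DO 2 was 11.15, against 11.61 to 11.69 in the other DO hearts (log2 intensity here and below). Ace in SO 3 was 5.34, against 4.73 to 4.81 in the other SO hearts. Grk2 in SO 3 was 5.25, against 5.08 to 5.1. Rgs4 in SO 2 was 6.12, against 6.74 to 6.86, and Ptgs2 in the same heart was 8.19, against 9.23 to 9.42. Rgs19 in DO 2 was 5.75, against 5.44 to 5.49 in the other DO hearts. Pde4d in CN 4 was 6.99, against 7.15 to 7.18 in the other CN hearts.

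For Rgs19, a regulator of Gi signalling, all 4 SO hearts lay below the CN mean and all 4 DO hearts above it. The SO minus DO difference of −0.44 (log2) did not pass the limma test (adjusted p = 0.701).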

How the results depend on the processing

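No probe passed in any of the 3 comparisons under any of 22 alternative settings. Of 324 recomputed member differences, 311 kept their direction, 13 changed sign, and none came to pass, with their lowest adjusted p at 0.369. With median scaling, Adra1a in SO against CN was −0.071, Rgs2 −0.025 and Nr3c2 −0.0007, and Apln in DO against CN was −0.0043. That scaling set the median probe at −0.17 for SO against CN and −0.18 for DO against CN. Relative to it, Adra1a was 0.10 and Rgs2 0.14 in SO against CN. An offset of 50 gave Edn2 0.0002 in SO against CN. Leaving out CN 1, CN 2, SO 3 and DO 1, a setting chosen after seeing the data, gave for SO against CN −0.021 for Adra1a, −0.17 for Adra2c and 0.059 for Itpr3. It gave for DO against CN 0.0053 for Edn1, −0.14 for Adra2c and 0.037 for Edn2, and for SO against DO −0.22 for Agtr1a, −0.077 for Ece1 and −0.11 for Edn2. With single arrays left out, SO against CN ran from −0.076 to 0.15 for Adra1a, −0.034 to 0.15 for Adra2c, −0.036 to 0.23 for Cma1 and −0.062 to 0.080 for Edn2. DO against CN ran from −0.18 to 0.064 for Edn1, −0.12 to 0.005 for Agtrap and −0.15 to 0.047 for Edn2. SO against DO ran from −0.13 to 0.15 for Agtr1a, −0.25 to 0.036 for Edn1, −0.020 to 0.093 for Agtrap, −0.033 to 0.059 for Atp6ap2, −0.049 to 0.19 for Ece1 and −0.051 to 0.15 for Edn2. The causes were not tested. With the group means taken out, same-numbered arrays of different groups correlated at −0.27 to 0.33 over 12 pairs. In 3 of these 12 pairs, the first group's array correlated best with its own number in the second group. The number was therefore not taken as a pairing. With the replicate block, 0 probes passed, Adra1b in SO against CN was −0.59 (limma adjusted p = 0.759) and Rgs2 in DO against CN 0.42 (adjusted p = 0.857). With a detection p under 0.01, 2 members were not tested. Signal near background limits Adra1a, Agtr1a and Edn1, and leaves Adrb1 and Ace without a value.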
